A study of Rattus norvegicus with 6 samples.

Results

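Prostaglandin synthesis and reception was followed through 10 genes: the cyclooxygenases Ptgs1 and Ptgs2, the synthases Ptges, Ptgis and Ptgds, the inactivating enzyme Hpgd, and the prostaglandin E2 receptors Ptger1, Ptger2, Ptger3 and Ptger4. They were chosen by name from the 30562 genes of the count table, where 8 of the 10 were found by gene name. Ptgis was found by its gene description under another name, which made 9 measured members. No row was matched to Ptges, so its expression is not analysed here. Ptgs2 is among the genes that the study itself picked from these libraries, so its difference between the groups is not independent evidence.

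Bulk RNA of intervertebral discs from wild-type rats was measured in 6 libraries, 3 control and 3 labelled AF-PTK@LEV@SPP1. By the study's methods the animals were 12-week-old male Sprague-Dawley rats with a needle-punctured tail disc, in which degeneration follows the injury, and both groups carried the puncture. AF-PTK@LEV@SPP1 is a liposome fused with bacterial outer-membrane vesicles, bearing an annulus-binding peptide whose linker is cut by reactive oxygen species, and loaded with siRNA against Spp1. It was injected into the disc from 24 h after surgery, as 10 μL with 1 mg/kg of siRNA, over a period of 8 weeks, while control discs received phosphate-buffered saline. The sample records differ from this: they give a control without treatment, a period of 14 days, and macrophages sorted by F4/80 and CD11b from discs of mice.

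The totals were 17942989, 16565291 and 17489851 counts in control replicates 1, 2 and 3, and 17074981, 15560728 and 17855184 in AF-PTK@LEV@SPP1 replicates 1, 2 and 3. Values below are normalized CPM, the counts of a gene per 1000000 counts of its library after scaling by the trimmed mean of M-values. At this depth 3 counts, the smallest level taken as measured, correspond to 0.154 to 0.193 normalized CPM, a floor that covers counting error only.

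The siRNA target Spp1 had 8123, 4411 and 4417 CPM in control replicates 1, 2 and 3. It had 8054, 6903 and 8461 CPM in AF-PTK@LEV@SPP1 replicates 1, 2 and 3. The target was therefore not called lower under the treated label (log2 fold change 0.31, standard error 0.37, edgeR adjusted p = 0.628), and the groups overlapped. The sign depended on the controls, with 0.81 without control replicate 1 (adjusted p = 0.290) and -0.07 without control replicates 2 and 3 (adjusted p = 0.945). Directions below refer to the label, as in AF-PTK@LEV@SPP1-labelled libraries, and not to a measured knockdown.

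Control replicates 2 and 3 differed little beyond sampling noise. The variance of their counts was 1.333 times that of counting noise, and 16 of 14393 genes differed, whereas the 5 other pairs within a group had ratios of 51.32 to 106.6. By the study's methods the discs of each group came from separate animals, and the labels do not tie a library to an animal. The pair was counted as 1 sample, which left n = 2 distinct control samples and n = 3 in the other group. With these numbers a two-sided exact permutation test cannot go below p = 0.1.

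The labelled tissue was checked against 17 lists of cell type markers. Col1a1, the main collagen of the annulus, had the most counts of all markers, with 31919.7, 44729 and 45053 CPM in control replicates 1, 2 and 3 and 64079, 45956 and 51253 CPM in AF-PTK@LEV@SPP1 replicates 1, 2 and 3. Lyz2, the most abundant of the 13 macrophage markers, had 1833, 1267 and 1247 CPM in the controls and 272, 1243 and 1401 CPM in the other group, and the macrophage marker Marco was at 0 in every library. Matrix genes thus took a large share of the counts in every library, which does not match a label of sorted macrophages. In bulk tissue, fewer cells of a type and less RNA per cell cannot be told apart.

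Prostaglandins are lipid signals made from arachidonic acid, which phospholipases release from membranes. The cyclooxygenases Ptgs1, present in many resting tissues, and Ptgs2, induced in inflammation, convert it to prostaglandin H2, from which dedicated synthases make prostaglandin E2, prostacyclin, prostaglandin D2 and thromboxane. In the disc, prostaglandin E2 is known as a mediator of inflammation and pain, and it acts through 4 receptors encoded by Ptger1 to Ptger4.

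Across the family the clearest differences were a fall of Ptgs2 and a rise of Ptgis in the AF-PTK@LEV@SPP1-labelled libraries. Of the 9 measured members, all of which passed the filter on low counts, edgeR's quasi-likelihood test at an adjusted p under 0.05 called 1 lower and 1 higher, against 2.57% lower and 1.13% higher among the 15537 genes tested. A count of 1 is a single gene, and nothing is read from it about the family. The median log2 fold change was 0.28 over the members and 0.05 over all genes tested. Groups of distinct samples did not overlap for 4 members that were higher and 3 that were lower, against 23.4% and 22.3% of all genes tested.

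**Figure D1:**
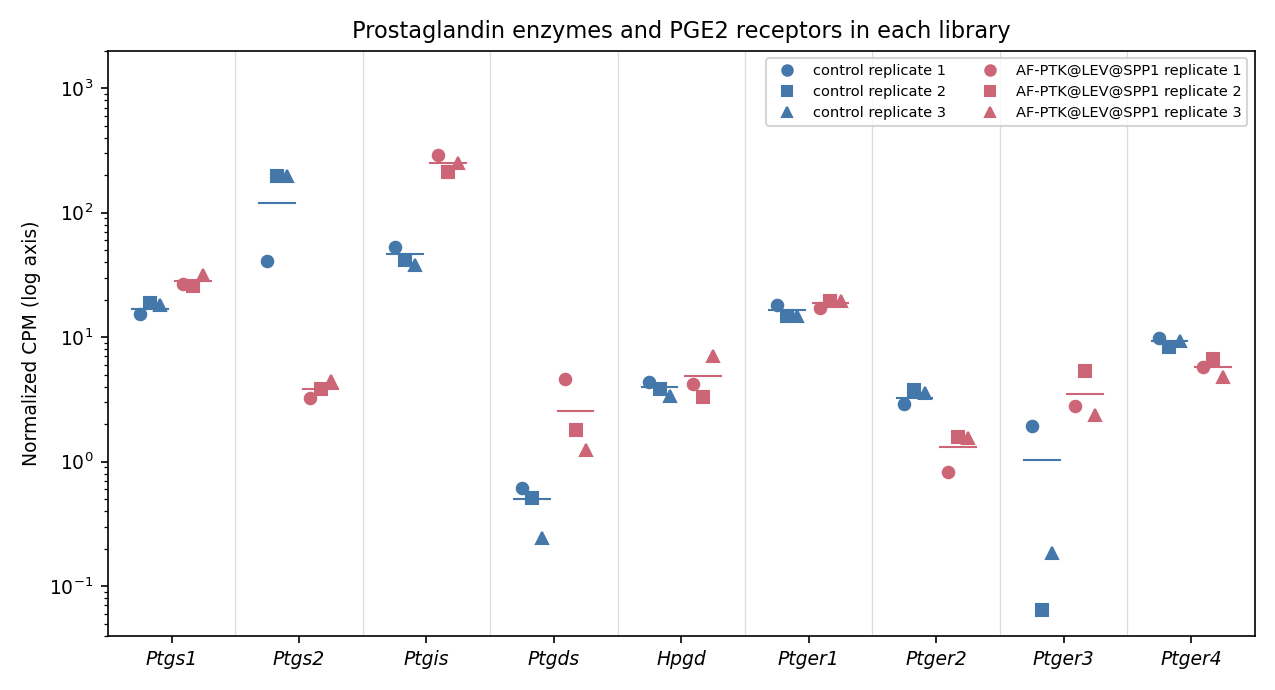
Normalized CPM on a log axis for the 9 measured members, with 1 point per library and a line at each group mean over distinct samples (control replicates 2 and 3 averaged as 1). Ptgs2 lay at 3.23 to 4.45 CPM in the AF-PTK@LEV@SPP1-labelled libraries and at 40.6 to 198 CPM in the controls, and Ptgis lay at 212 to 289.9 CPM against 37.8 to 53.1 CPM.

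Ptgs2 (ENSRNOG00000002525), the inducible cyclooxygenase, lies on chromosome 13 from 62163932 to 62172188 in the table's annotation, whose rat build is not given in the sources used here. It had 40.6, 198 and 197 CPM in control replicates 1, 2 and 3. It had 3.23, 3.86 and 4.45 CPM in AF-PTK@LEV@SPP1 replicates 1, 2 and 3, from 55, 64 and 78 counts. Every control library was above every library of the other group, and the controls themselves were unequal, with replicate 1 well below the near-identical pair. The means were 119 ± 111 CPM (SD, n = 2) in the controls and 3.85 ± 0.606 CPM (SD, n = 3) in the AF-PTK@LEV@SPP1-labelled libraries, a 31.0-fold lower level. The log2 fold change was -4.96 (standard error 0.70, edgeR adjusted p = 0.0367), and the exact permutation test gave p = 0.1, the smallest it can give.

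The size of the Ptgs2 difference depended on the controls, and its call on the libraries that entered and on the tool. It was -5.70 on the log2 scale without control replicate 1 (adjusted p = 0.0166) and -3.41 without the pair (adjusted p = 0.0561). The adjusted p was 0.0814, 0.111 and 0.162 without AF-PTK@LEV@SPP1 replicates 1, 2 and 3 in turn, and 0.0826 with limma-voom. Over all alternatives it ran from 1.79e-12 to 0.263, and the gene was lower in each of them.

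Ptgs1 (ENSRNOG00000007415), the constitutive cyclooxygenase on chromosome 3 from 19584015 to 19605586, had 15.3, 18.7 and 18.1 CPM in control replicates 1, 2 and 3. It had 26.6, 26.0 and 31.8 CPM in AF-PTK@LEV@SPP1 replicates 1, 2 and 3. The groups did not overlap and the values were higher in the AF-PTK@LEV@SPP1-labelled libraries, the opposite side from Ptgs2. The means of 16.8 ± 2.24 CPM (SD, n = 2) and 28.1 ± 3.19 CPM (SD, n = 3) differed 1.67-fold, with a log2 fold change of 0.73 (standard error 0.16) that did not pass the edgeR test (adjusted p = 0.0754). It passed with DESeq2 (adjusted p = 0.00659) and with the 6 libraries kept separate (adjusted p = 0.0194), within a range of 0.00659 to 0.347 over all alternatives.

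The balance of both cyclooxygenases was taken as the log2 ratio of Ptgs2 to Ptgs1 counts within a library, which does not depend on library scaling. It was 1.41, 3.40 and 3.44 in control replicates 1, 2 and 3. It was -3.04, -2.75 and -2.84 in AF-PTK@LEV@SPP1 replicates 1, 2 and 3. Ptgs2 counts exceeded Ptgs1 counts in every control and fell short of them in every other library. The counts are not corrected for transcript length, so the difference between groups can be read and the sign of a single ratio cannot be taken as a ratio of molecules. The mean was 2.42 ± 1.42 (SD, n = 2) in the controls and -2.88 ± 0.15 (SD, n = 3) in the AF-PTK@LEV@SPP1-labelled libraries, a difference of -5.29 with an exact permutation p = 0.1, two-sided. It was -6.30 without control replicate 1 and -4.29 without the pair.

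Among the synthases, Ptgis (ENSRNOG00000008245) makes prostacyclin and lies on chromosome 3 from 155916412 to 155965451. It had 53.1, 41.4 and 37.8 CPM in control replicates 1, 2 and 3. It had 289.9, 212 and 250.1 CPM in AF-PTK@LEV@SPP1 replicates 1, 2 and 3. The groups stood far apart, and the gap between them was wider than the spread within either. The means were 46.4 ± 9.54 CPM (SD, n = 2) and 251 ± 38.8 CPM (SD, n = 3), a 5.41-fold higher level in the AF-PTK@LEV@SPP1-labelled libraries. The log2 fold change was 2.43 (standard error 0.22, edgeR adjusted p = 0.0196; exact permutation p = 0.1).

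Unlike that of Ptgs2, the size of the Ptgis difference moved little, from 2.23 to 2.65 on the log2 scale over all alternatives. Its adjusted p was 0.0679 without AF-PTK@LEV@SPP1 replicate 2, 0.136 without replicate 3 and 0.0923 without the control pair, in a range of 6.92e-21 to 0.155. The fit without AF-PTK@LEV@SPP1 replicates 2 and 3, added after seeing the data because these libraries are rich in erythroid, muscle and Schwann cell transcripts, gave 2.64 for Ptgis (adjusted p = 0.155) and -5.21 for Ptgs2 (adjusted p = 0.263), and neither was called.

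Ptgds (ENSRNOG00000015550), which makes prostaglandin D2 and lies on chromosome 3 from 8281899 to 8284833, was scarce. It had 12, 8 and 4 counts in control replicates 1, 2 and 3, or 0.616, 0.515 and 0.244 CPM. It had 78, 30 and 22 counts in AF-PTK@LEV@SPP1 replicates 1, 2 and 3, or 4.59, 1.81 and 1.25 CPM. All 3 were above the controls, with replicate 1 far above the other pair. The means were 0.498 ± 0.168 CPM (SD, n = 2) and 2.55 ± 1.79 CPM (SD, n = 3), and the log2 fold change of 2.36 (standard error 0.73) did not pass (edgeR adjusted p = 0.133; exact permutation p = 0.2). DESeq2 gave an adjusted p of 0.0275 and the fit of 6 libraries 0.0442, in a range of 0.0275 to 0.405. The log2 fold change was 1.60 without AF-PTK@LEV@SPP1 replicate 1 and 3.21 without replicates 2 and 3.

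Hpgd (ENSRNOG00000010610) on chromosome 16 from 33986266 to 34024228 encodes the dehydrogenase that begins the breakdown of prostaglandin E2. It had 4.37, 3.86 and 3.36 CPM in control replicates 1, 2 and 3. It had 4.23, 3.32 and 7.01 CPM in AF-PTK@LEV@SPP1 replicates 1, 2 and 3. The groups overlapped, and only replicate 3 of the latter stood above the controls. The means of 3.99 ± 0.535 CPM (SD, n = 2) and 4.85 ± 1.92 CPM (SD, n = 3) differed by less than the spread, with a log2 fold change of 0.28 (standard error 0.38, edgeR adjusted p = 0.674), which became -0.08 without replicate 3 of the AF-PTK@LEV@SPP1-labelled libraries.

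On the 5 distinct samples, none of the 4 prostaglandin E2 receptors was called by edgeR or limma-voom. With edgeR 2 were at an unadjusted p under 0.05, as were 25.4% of all genes tested, and with limma-voom 3, against 25.6%. DESeq2 called 2 lower, against 9.27% of all genes tested. These were Ptger2 (adjusted p = 0.0340, range 0.0336 to 0.363) and Ptger4 (adjusted p = 0.0387, range 0.0387 to 0.408). Ptger2 and Ptger4, which raise cyclic AMP, were the receptors with lower values. Ptger2 (chromosome 15 from 18217285 to 18228714) had 2.88, 3.73 and 3.54 CPM in control replicates 1, 2 and 3 and 0.823, 1.57 and 1.54 CPM in AF-PTK@LEV@SPP1 replicates 1, 2 and 3. Ptger4 (chromosome 2 from 54335424 to 54346670) had 9.81, 8.36 and 9.34 CPM against 5.76, 6.70 and 4.79 CPM in the same order. For both receptors every control library lay above every library of the other group. The log2 fold change was -1.32 (standard error 0.38, edgeR adjusted p = 0.119) for Ptger2 and -0.71 (standard error 0.21, edgeR adjusted p = 0.124) for Ptger4, and the exact permutation p was 0.1 for each.

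Ptger3, which lowers cyclic AMP, lies on chromosome 2 from 246606183 to 246684434. It had 38, 1 and 3 counts in control replicates 1, 2 and 3, or 1.95, 0.0643 and 0.183 CPM. It had 48, 88 and 42 counts in AF-PTK@LEV@SPP1 replicates 1, 2 and 3, or 2.82, 5.31 and 2.39 CPM. Control replicate 1 came close to the other group, while the control pair was near the floor. The log2 fold change of 1.80 (standard error 1.07, edgeR adjusted p = 0.344) thus rested on which controls entered: it was 4.72 without control replicate 1 (adjusted p = 0.0804) and 0.83 without the pair (adjusted p = 0.538).

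Ptger1, which signals through calcium, had 18.0, 14.9 and 14.9 CPM in control replicates 1, 2 and 3 and 17.2, 19.6 and 19.6 CPM in AF-PTK@LEV@SPP1 replicates 1, 2 and 3. These overlapped (log2 fold change 0.19, standard error 0.15, edgeR adjusted p = 0.469). The span of Ptger1 on chromosome 19 from 24467532 to 24473559 lies wholly within Gipc1 on the same strand, so its counts are uncertain.

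With the 6 libraries kept separate, edgeR called 3 members higher (Ptgs1, Ptgis and Ptgds) and 3 lower (Ptgs2, Ptger2 and Ptger4), against 8.20% higher and 9.93% lower of 15042 genes tested. That fit counts the near-identical pair as 2 replicates. DESeq2 on the 5 distinct samples called the same 6 members, against 7.29% higher and 9.27% lower of all genes tested. On simulated counts of this design a larger share of the calls of DESeq2 was false than of those of edgeR or limma-voom. The false share was 35.1% with DESeq2, 5.8% with edgeR and 7.91% with limma-voom, which bears on each DESeq2 call given here. The share of 4-fold changes recovered was 85.4%, 65.3% and 64.3% in the same order. A gene left uncalled by edgeR or limma-voom may therefore still differ. limma-voom called Ptgis alone, against 0.895% higher and 2.03% lower.

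Of 38 other genes of eicosanoid synthesis, transport and reception, 35 had a row and 29 passed the filter on low counts. Of these, 2 fell and none rose by the edgeR test, with 9 at an unadjusted p under 0.05 against 25.4% of all genes. limma-voom called 2 lower, against 2.03% of all genes. DESeq2 called 6 lower and 1 higher, against 9.27% and 7.29% of all genes. Their median log2 fold change was 0.08. The groups of distinct samples did not overlap for 4 that were higher and 8 that were lower, against 23.4% and 22.3% of all genes tested. The 2 that fell by the edgeR test stand against 2.57% called lower among all genes, and nothing is read from any of these counts about these genes as a set.

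Pla2g4a, the cytosolic phospholipase that releases arachidonic acid, had 38.9, 58.0 and 56.8 CPM in control replicates 1, 2 and 3. It had 16.3, 17.1 and 21.3 CPM in AF-PTK@LEV@SPP1 replicates 1, 2 and 3. All 3 values lay below all controls, with a log2 fold change of -1.41 (standard error 0.22, edgeR adjusted p = 0.0407). The adjusted p was 0.0803, 0.116 and 0.150 without AF-PTK@LEV@SPP1 replicates 1, 2 and 3 in turn and 0.153 without the control pair, in a range of 5.77e-06 to 0.228. Among 5 tested genes of arachidonate release, edgeR and limma-voom called Pla2g4a alone, against 2.57% and 2.03% of all genes called lower. DESeq2 called 2, against 9.27% of all genes called lower. The fit of 6 libraries called 3, against 9.93% of all genes called lower and 8.20% higher. Pla2g2a, a secreted phospholipase named after its values were seen, had 504, 699 and 699 CPM in control replicates 1, 2 and 3 and 196, 194 and 321 CPM in AF-PTK@LEV@SPP1 replicates 1, 2 and 3. Its groups stood apart (log2 fold change -1.35, edgeR adjusted p = 0.0752), and it passed with DESeq2 (adjusted p = 0.000441) and with 6 libraries (0.0171). The third gene called with 6 libraries was Pla2g5, another secreted phospholipase, which was higher (log2 fold change 0.53, edgeR adjusted p = 0.129, and 0.0347 with 6 libraries).

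Slco2a1, the transporter that carries prostaglandins into cells, had 30.5, 32.7 and 34.1 CPM in control replicates 1, 2 and 3. It had 9.53, 11.3 and 13.0 CPM in AF-PTK@LEV@SPP1 replicates 1, 2 and 3. The 3 controls were close to each other and all above the other group, with a log2 fold change of -1.51 (standard error 0.17, edgeR adjusted p = 0.0231). The adjusted p was 0.0578 without control replicate 1, 0.0845 and 0.136 without AF-PTK@LEV@SPP1 replicates 2 and 3, and 0.120 without the control pair, in a range of 4.64e-11 to 0.169. Among 5 tested genes of transport and inactivation, edgeR and limma-voom called Slco2a1 alone, against 2.57% and 2.03% of all genes called lower. DESeq2 and the fit of 6 libraries called 2, against 9.27% and 9.93% of all genes called lower. The other was Abcc4, an efflux transporter of prostaglandins named after its values were seen, with 23.5, 19.5 and 20.5 CPM in the controls and 9.82, 14.1 and 15.0 CPM in the other group. Its groups did not overlap (log2 fold change -0.75, edgeR adjusted p = 0.120, DESeq2 adjusted p = 0.0285, and 0.0457 with 6 libraries).

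On the 5 distinct samples, edgeR called no gene among the 7 other synthases, the 3 other receptors tested or the 9 genes of the leukotriene and lipoxin arm. With edgeR 4 of these 19 were at an unadjusted p under 0.05, against 25.4% of all genes. DESeq2 called 3 (1 higher and 2 lower, against 7.29% and 9.27% of all genes) and limma-voom 0. Ptges3, a cochaperone also described as a prostaglandin E synthase, had the most counts among the 7 other synthases. It had 204, 200.5 and 207 CPM in control replicates 1, 2 and 3 and 169, 161 and 175 CPM in AF-PTK@LEV@SPP1 replicates 1, 2 and 3 (log2 fold change -0.28, edgeR adjusted p = 0.197). Ptgfr, the receptor of prostaglandin F2α, had 33.7, 42.8 and 43.3 CPM against 15.6, 20.7 and 23.8 CPM (log2 fold change -0.95, edgeR adjusted p = 0.0802). In both, the groups stood apart without passing this test. Both passed with DESeq2, Ptges3 at an adjusted p of 0.0201 and Ptgfr at 0.00383, and Ptgfr also with the 6 libraries kept separate (0.0187). The third DESeq2 call was Alox12, a lipoxygenase, with 9.96, 15.8 and 18.0 CPM against 59.7, 36.0 and 68.2 CPM (log2 fold change 2.01, edgeR adjusted p = 0.0580, DESeq2 adjusted p = 2.56e-05, and 0.0135 with 6 libraries). Anxa1, an inhibitor of phospholipase and ligand of the lipoxin receptor, had 865, 1317 and 1295 CPM against 654, 597 and 858 CPM (log2 fold change -0.64, edgeR adjusted p = 0.219). Control replicate 1 and AF-PTK@LEV@SPP1 replicate 3 were nearly level.

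**Figure D2:**
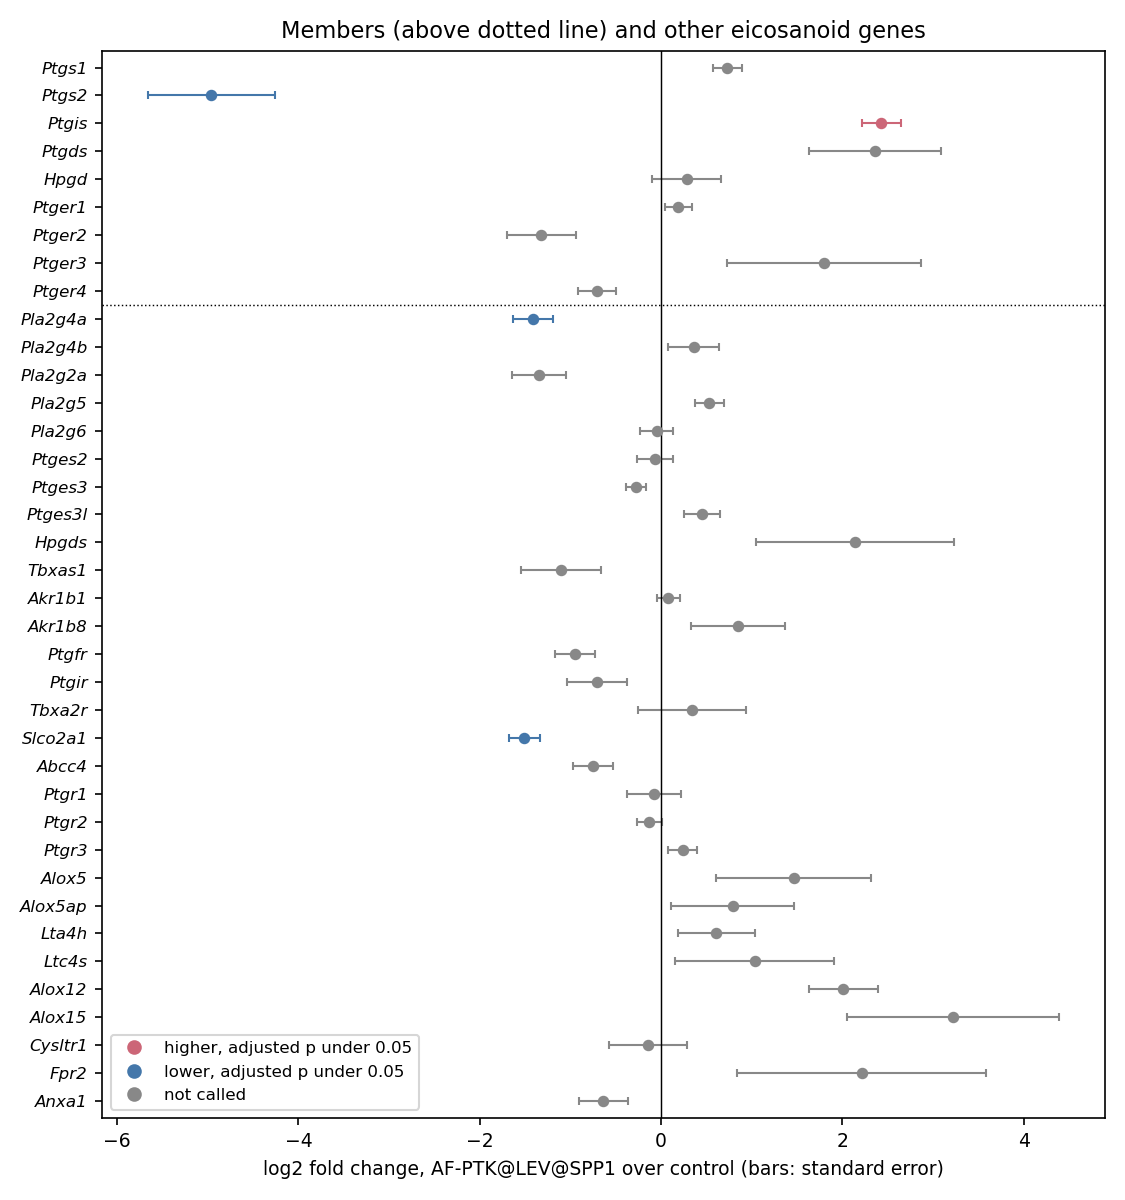
Log2 fold change of the AF-PTK@LEV@SPP1-labelled libraries over control for the 9 measured members and 29 other eicosanoid genes, with bars for the standard error from edgeR and colours for the call. Ptgs2, Pla2g4a and Slco2a1 were called lower, at -4.96, -1.41 and -1.51, and Ptgis was called higher, at 2.43.

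Markers of other cell types moved with the groups. The summed level of the 7 osteoclast markers, led by Ctsk, was 6501, 4226 and 4245 CPM in control replicates 1, 2 and 3 and 1122, 1097 and 769 CPM in AF-PTK@LEV@SPP1 replicates 1, 2 and 3. edgeR called 5 of the 7 lower, DESeq2 6 and limma-voom 4, against 2.57%, 9.27% and 2.03% of all genes. The 13 macrophage markers summed to 3150.1, 2149 and 2131 CPM and to 721, 1970.3 and 1997 CPM. Of 12 tested, 3 were called lower by edgeR and by limma-voom and 5 by DESeq2, against 2.57%, 2.03% and 9.27% of all genes. This list was not uniform: Lyz2 and Cd163, among others, overlapped between the groups, with log2 fold changes of -0.68 and 1.15. Both sums were lower in the AF-PTK@LEV@SPP1-labelled libraries, as Ptgs2, Pla2g4a and Slco2a1 were. Within the controls the order differed, since replicate 1 had the highest sums of both lists and the lowest Ptgs2. The part of these cells in the fall of Ptgs2 was not tested.

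Another 3 lists were lower in each of the AF-PTK@LEV@SPP1-labelled libraries. The 6 meninges and fibroblast markers, led by Col3a1, summed to 17645, 35268 and 35392 CPM in control replicates 1, 2 and 3 and to 10829, 9192 and 13141 CPM in AF-PTK@LEV@SPP1 replicates 1, 2 and 3, with 1 of 6, Lum, called lower by edgeR and by limma-voom. DESeq2 called Lum, Col3a1 (adjusted p = 0.00443) and Pdgfra (adjusted p = 0.000251) lower. The list was not uniform: Pi16, named after its values were seen, had 38.9, 9.33 and 9.10 CPM against 205, 121 and 265 CPM (log2 fold change 3.03, edgeR adjusted p = 0.0885) and was called higher by DESeq2 (adjusted p = 6.97e-05) and with the 6 libraries kept separate (0.0242), and Dpt overlapped between the groups. The sum had the order of Ptgs2 within the controls, replicate 1 below the pair, and its part was likewise not tested. The 7 T cell markers, led by Cd4, summed to 174, 105 and 104 CPM and to 74.0, 95.3 and 83.7 CPM. Of the 7, 2 were called lower by edgeR and by limma-voom and 4 by DESeq2. That sum was carried by Cd4, which overlapped between the groups, with 149, 81.1 and 80.9 CPM against 65.4, 84.2 and 71.6 CPM. Its log2 fold change was -0.65 (edgeR adjusted p = 0.220). Lck overlapped as well (log2 fold change 0.07). The 6 endothelial markers, led by Pecam1, summed to 493, 616 and 602 CPM and to 365, 419 and 422 CPM. Kdr and Emcn among them overlapped between the groups, with log2 fold changes of 0.03 and -0.05. edgeR and limma-voom called none of the 6, with 4 at an unadjusted p under 0.05 in each (25.4% and 25.6% of all genes), whereas DESeq2 called 3 lower (Pecam1, Vwf and Tie1, adjusted p = 0.0147, 0.00540 and 0.0301) and the fit of 6 libraries these and Cdh5. The counts called lower in these 3 lists stand against 2.57% of all genes with edgeR, 2.03% with limma-voom, 9.27% with DESeq2 and 9.93% with 6 libraries.

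The lists whose summed level was higher in every AF-PTK@LEV@SPP1-labelled library, as Ptgis was, were those of annulus and tendon, adipocytes, Schwann cells, and nucleus pulposus and notochord. The 7 annulus and tendon markers, led by Col1a1, summed to 53705, 74284 and 75134 CPM in control replicates 1, 2 and 3 and to 114222, 81049.5 and 96636 CPM in AF-PTK@LEV@SPP1 replicates 1, 2 and 3. That sum was carried by Col1a1 and Col1a2, and the list was not uniform: Scx, Tnmd, Thbs4 and Fmod overlapped between the groups, with negative log2 fold changes for Scx (-0.41) and Thbs4 (-0.55). The 7 measured nucleus pulposus and notochord markers, led by Cd24 and with Noto at 0, summed to 760.1, 327 and 320.0 CPM and to 4225, 1507 and 1788 CPM. Foxa2 of this list overlapped between the groups (log2 fold change 0.19). So did Shh, which was scarce, with 0, 0.129 and 0.122 CPM against 0.0588, 0.965 and 1.77 CPM. edgeR and limma-voom called none of the 27 tested markers of the 4 lists, with 15 at an unadjusted p under 0.05 in each, against 25.4% and 25.6% of all genes. DESeq2 called 16 of the 27 higher and the fit of 6 libraries 7 of the 25 it tested, against 7.29% and 8.20% of all genes. The part of these markers in the rise of Ptgis was not tested. The 8 adipocyte markers, led by Fabp4, summed to 419.9, 71.4 and 77.6 CPM and to 1013, 1681 and 728 CPM. The 6 Schwann cell markers, led by Pmp22, summed to 215, 289 and 283 CPM and to 377, 1009 and 1524 CPM, and Sox10 overlapped between the groups.

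In the leukotriene arm, Alox15 was named after its values were seen, because it separated libraries within a group. It had 11.5, 7.85 and 7.27 CPM in control replicates 1, 2 and 3 and 10.8, 176 and 79.7 CPM in AF-PTK@LEV@SPP1 replicates 1, 2 and 3. The 10 neutrophil markers, led by S100a9, summed to 1203, 194 and 182 CPM and to 315, 3105 and 4202 CPM, and the 7 erythroid markers, led by Hba-a1, to 2393, 3188 and 3278 CPM and to 2508, 20591 and 14109 CPM. AF-PTK@LEV@SPP1 replicates 2 and 3 stood above the other libraries in Alox15 and in both lists, while replicate 1 lay within the range of the controls. The log2 fold change of Alox15 was 3.22 (edgeR adjusted p = 0.174).

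**Figure D3:**
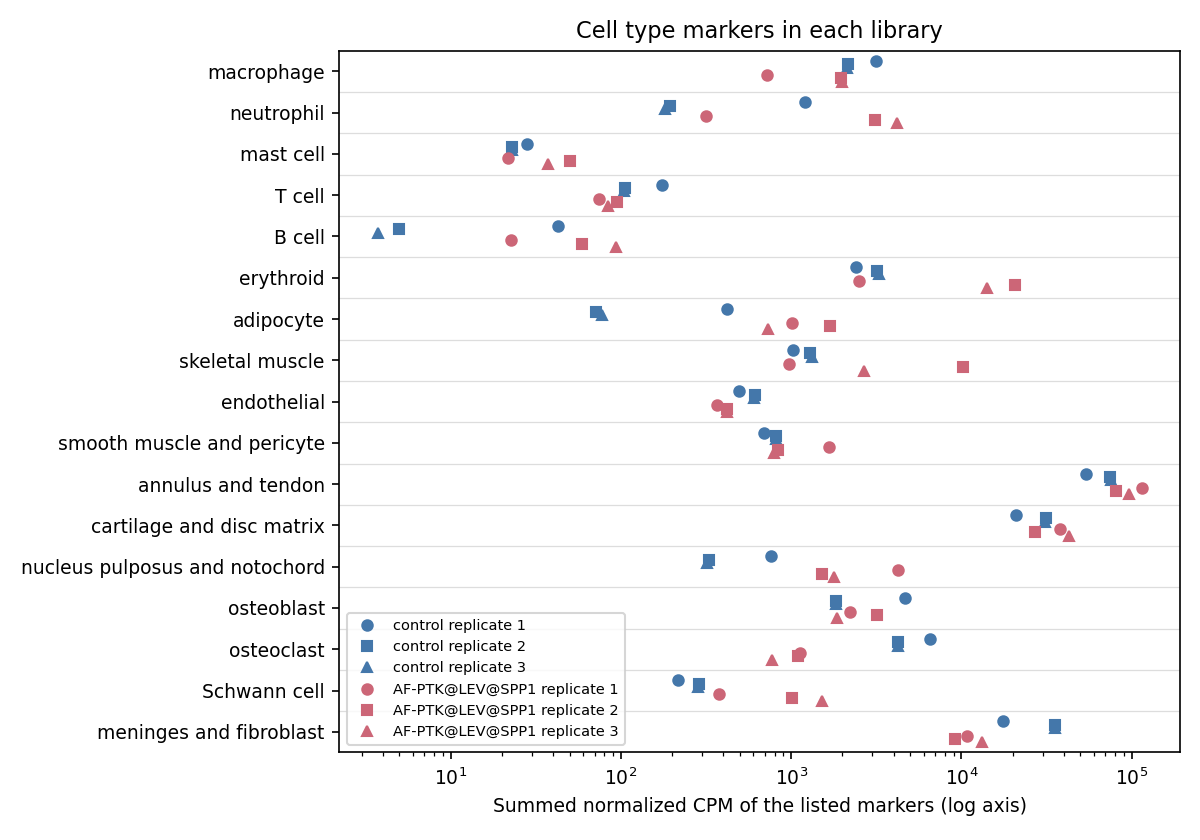
Summed normalized CPM on a log axis of the markers in each of 17 cell type lists, with 1 point per library. Osteoclast markers lay at 769 to 1122 CPM in the AF-PTK@LEV@SPP1-labelled libraries and at 4226 to 6501 CPM in the controls, while sums of 8 of the 17 lists overlapped between the groups.

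Genes with a pattern like that of Ptgs2 were sought among all genes tested by the root mean square difference of centred log2 CPM over the 5 distinct samples. The closest 5 were Ptprn (difference 0.26), Csf3 (0.30), Lrrn4 (0.33), Gpr15lg (0.34) and Hephl1 (0.38). Csf3, Lrrn4 and Hephl1 had fewer than 3 counts in each of the AF-PTK@LEV@SPP1-labelled libraries, so the size of their difference was not measured and their closeness to Ptgs2 depends on the prior count of 2 added for the log scale. Ptprn had 4.06 CPM in control replicate 1 and 24.7 CPM in the summed control pair, against 0.238, 0.548 and 0.518 CPM in AF-PTK@LEV@SPP1 replicates 1, 2 and 3. Gpr15lg had 11.7 and 45.6 CPM in the controls and 0.655, 0.487 and 0.691 CPM in the others. Both genes shared with Ptgs2 a low control replicate 1, a high control pair and a still lower other group. The closest 5 to Hpgd were Fbxo2 (0.06), Inka1 (0.08), Cyb561 (0.09), Diablo (0.09) and LOC108348980 (0.10), all with their highest value in AF-PTK@LEV@SPP1 replicate 3.

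The promoters of the cyclooxygenases are shown because the genes catalyse the same reaction and lay on opposite sides between the groups. Promoter sequences of 300 bases, from 250 before to 50 after the gene start, were taken from RefSeq on build GRCr8 for 9 of the 10 members, and that of Ptgis is not analysed here. They were searched on both strands for 5 motifs: the NF-kB consensus (held by 7.51% of all 33469 promoters), TTNNGCAA (C/EBP, 10.6%), CACGTG (E-box, 6.42%), TGACGTCA (cyclic AMP response element, 1.83%) and TGANTCA (AP-1, 7.33%). Capitals mark the matches, none of which overlaps another in these sequences, which read 5′ to 3′ on the gene's strand, from chr13:64713813-64714112 (plus strand) for Ptgs2 and chr3:39981169-39981468 (plus strand) for Ptgs1.
Ptgs2: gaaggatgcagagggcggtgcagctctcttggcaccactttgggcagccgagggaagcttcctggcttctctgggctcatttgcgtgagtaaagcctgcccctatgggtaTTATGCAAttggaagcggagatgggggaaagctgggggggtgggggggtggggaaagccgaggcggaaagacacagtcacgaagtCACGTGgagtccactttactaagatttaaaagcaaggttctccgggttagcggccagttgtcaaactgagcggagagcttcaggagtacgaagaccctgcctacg
Ptgs1: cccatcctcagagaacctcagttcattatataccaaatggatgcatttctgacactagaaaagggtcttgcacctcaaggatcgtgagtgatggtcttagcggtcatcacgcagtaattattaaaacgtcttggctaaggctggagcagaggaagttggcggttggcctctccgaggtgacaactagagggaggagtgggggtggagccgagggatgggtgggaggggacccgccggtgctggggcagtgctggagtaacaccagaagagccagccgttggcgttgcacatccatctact
The Ptgs2 promoter held 1 match each to the C/EBP and E-box letters, at bases 111 to 118 and 196 to 201 of the printed run. The Ptgs1 promoter held none of the 5, and the NF-kB consensus was in neither. Among the other members, the Hpgd promoter held 1 E-box match, Ptges held 1 C/EBP match, and those of Ptgds and of the 4 receptors held none. A match is a run of letters and not a measured site.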

How the data were processed

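The authors deposited counts: whole numbers of reads per Ensembl rat gene in 6 libraries, without normalization. The submitters' processing notes name FastQC, Trimmomatic, HISAT2, featureCounts, DESeq2 and the mouse build mm10, without versions, whereas the identifiers are of rat; the rat build and the use of strand are not given in the sources used here.

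Counts of control replicates 2 and 3 were summed as 1 sample. The resulting 5 samples entered edgeR 4.0.16, run in R 4.3.3 (trimmed mean of M-values, filterByExpr with a minimum count of 10, quasi-likelihood test, Benjamini-Hochberg adjustment over all genes tested), and genes were called at an adjusted p under 0.05 at any fold. The common biological coefficient of variation was 0.302. log2 CPM used a prior count of 2. edgeR, limma-voom and DESeq2 on the 5 samples were tested on simulated data. Alternatives were DESeq2 1.42.0, limma-voom (limma 3.58.1), other normalizations and filters, a fold threshold, 6 separate libraries, a replicate block and libraries left out.

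The members and lists were chosen with earlier results of these data known. Named are all members, called pathway genes or else the most abundant of each group, Spp1, leading markers, markers at 0, and the 5 genes most like Ptgs2 and Hpgd; genes named for a call in another fit were chosen after their values were seen. The study's methods name 3 separate animals in each group, whereas control replicates 2 and 3 were near-identical, and the labels do not say which animal gave which library, so p-values measure the spread between these samples. A looser NF-kB pattern, which matched the promoters of both Ptgs1 and Ptgs2, was searched first and replaced by the consensus. Transcript lengths were not used, so the most abundant gene of a list is the one with the most counts, and a larger count does not mean more transcripts.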

Additional observations from a re-analysis of the deposited data

How the results depend on the processing

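The 575 genes called became 2727 (1233 higher, 1494 lower) with the 6 libraries kept separate and 2572 (1132 higher, 1440 lower) with DESeq2, and all 575 were among each. Members called went from 2 to 6 in both, and other eicosanoid genes from 2 to 7 in both; limma-voom called 1 member. Without each replicate in turn, calls ran from 0 to 566 genes, 0 to 2 members and 0 to 2 other eicosanoid genes. They were 0 without AF-PTK@LEV@SPP1 replicate 2 or 3, where edgeR had 3109 and 2699 genes at an unadjusted p under 0.05. In 2 alternatives added after seeing the data, 3 genes were called without control replicates 2 and 3, and 0 without AF-PTK@LEV@SPP1 replicates 2 and 3 (2572 and 2251 at an unadjusted p under 0.05), with 0 members and 0 other eicosanoid genes in each. These fits hold fewer samples, and a group left with 1 sample is assumed to vary like the other.

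The 11 members and called genes gave 165 alternative log2 fold changes, of which 164 kept their sign. That of Hpgd, 0.28, became -0.08 without AF-PTK@LEV@SPP1 replicate 3, in a leave-one-out range of -0.08 to 0.50. The difference in the log2 ratio of Ptgs2 to Ptgs1 counts, -5.29, ran from -6.30 to -5.21 without each replicate in turn. It was -4.29 without control replicates 2 and 3 and -5.46 without AF-PTK@LEV@SPP1 replicates 2 and 3, both added after seeing the data.

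Libraries with the same number had correlations of -0.326, -0.282 and -0.0756 between their deviations from the group means, so the numbers do not pair them, and the near-identical pair limits this check. With the replicate block, 741 genes, 2 members and 4 other eicosanoid genes were called. The ratio of Ptges to Hpgd counts was not run, since expression of Ptges is not analysed here.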
